A study of Homo sapiens with 4 samples.

Results

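The cytosolic ribosomal proteins were described in MV4-11 cells, a human acute myeloid leukemia (AML) cell line, after knockdown of the transcription factor IRF1. Members were the protein-coding genes whose whole symbol is RPL or RPS with digits and an optional A or X, plus RPLP0, RPLP1, RPLP2 and RPSA. Pseudogenes and the RPS6K kinases were left out. The rule found 77 genes among the 23622 in the table, of which 46 encode proteins of the large (60S) subunit and 31 of the small (40S) subunit, and it used no measured value. All 77 had enough reads to be tested. RNA was sequenced from 2 NC libraries, which the labels give as wild type with no treatment and the study's text as a control hairpin (sh-NC), and from 2 sh-IRF1 libraries. The study's methods describe lentiviral short hairpin RNA, which directs the breakdown of transcripts it matches, with puromycin selection in both arms. Which of the designed hairpins each sh-IRF1 library carries is not given in the sources used here, and neither are separate cultures, so the p-values measure only the spread between these libraries.

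A ribosome joins ribosomal RNAs with a large set of proteins, and a dividing cell makes all of these proteins in nearly equal numbers. Their messenger RNAs are among the most abundant in the cell and begin with a C followed by a run of pyrimidines, the 5′ terminal oligopyrimidine (TOP) motif. Through this motif their translation and stability are set by mTORC1 and RNA-binding proteins such as LARP1. Many of the genes carry small nucleolar RNAs (snoRNAs), which guide the modification of ribosomal RNA, in their introns. Loss of one copy of certain members causes Diamond-Blackfan anemia, and loss of one RPS14 copy marks the 5q- syndrome, a disease of the myeloid lineage.

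The start of the transcript is where most of these genes have a sequence feature in common. RefSeq windows around annotated starts (GRCh38.p14) were found for 62 of the 77 members. In 46 of the 62 (74.2%) an annotated start fell on a C followed by at least 4 pyrimidines, compared with 5.14% of the 27305 genes that have a window. A gene was counted when any of its windows met the pattern. In 10 more members such a run began later in the 20 bases after the start, and in 6 none was found there. The lines below give 10 bases before and 20 bases from the start of members that the results turn on, 5′ to 3′ on the coding strand, with the pyrimidine run in capitals.
RPL7A, chr9:133348208-133348237 (+): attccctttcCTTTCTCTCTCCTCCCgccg
RPL19, chr17:39200273-39200302 (+): tctccccttcgcagataatgggaggagccg
RPS29, chr14:49598691-49598720 (-): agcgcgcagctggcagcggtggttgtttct
RPL10A, chr6:35468391-35468420 (+): aagacatgctagtCTCTTTTCCggttagcg
RPL35A, chr3:197950180-197950209 (+): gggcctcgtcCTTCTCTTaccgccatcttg
RPS21, chr20:62387093-62387122 (+): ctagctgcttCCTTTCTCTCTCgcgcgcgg
RPLP0, chr12:120201092-120201121 (-): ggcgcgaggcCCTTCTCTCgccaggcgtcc
RPS14, chr5:150449720-150449749 (-): ccctcccactCTCTCTTTCCggtgtggagt
RPS6, chr9:19380217-19380246 (-): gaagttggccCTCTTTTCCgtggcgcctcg
RPL11, chr1:23691796-23691825 (+): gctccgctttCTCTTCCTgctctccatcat
RPL22, chr1:6199576-6199605 (-): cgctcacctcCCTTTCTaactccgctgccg
RPL15, chr3:23917122-23917151 (+): aaggcattgtgggagtacagCTCTTTCCTT
RPS4X, chrX:72277229-72277258 (-): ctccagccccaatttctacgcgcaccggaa
RPL7A, RPL19, RPS29 and RPL10A were among the members with the largest decreases, RPL22 and RPS4X were among those that did not pass the test, and RPL15 was the one member called higher. No run was found after the printed start of RPL19, RPS29 or RPS4X, and in RPL10A and RPL15 it began later. Members with large decreases thus stand on both sides of this annotated feature. The starts that these cells use were not measured, so a missing or later run does not show that the mRNA lacks the motif. Runs that begin at the start were 5 to 19 bases long, with a median of 8.

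The deposited values are gene reads scaled by a single size factor in every library, and are called normalised read counts here. Depth ran from 17635908 to 18695337 reads per library. IRF1 itself, the target of the hairpin, had normalised read counts of 785 and 738 in NC and of 430 and 432 in sh-IRF1, or 56.6% of the NC mean (log2 fold change -0.82, adjusted p = 1.69e-10 by limma), with 22.9% of its exonic bases overlapping other genes. Of 10 markers of myeloid leukemia cells, 9 were at 10 or more in every library. Differences were tested with limma on log2(normalised read count + 1) over 14120 genes, a scale that understates changes of low values, with Benjamini-Hochberg adjustment. The smallest p that an exact permutation test (two-sided) of a single gene can reach with 2 libraries a group is 0.33. The calls therefore depend on the variance that limma pools over genes. In bulk RNA, fewer cells of a type and less RNA per cell cannot be told apart.

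Most ribosomal protein mRNAs were slightly lower in the sh-IRF1 libraries. At an adjusted p under 0.05, 59 of the 77 members fell, 1 rose and 17 did not pass the test. Over all genes tested, 21.9% were called lower and 20.3% higher. The median log2 fold change of the members was -0.20, which is 86.9% of the NC level, while the median over all genes tested was -0.00. The middle 50% of the members lay between -0.32 and -0.13. In 63 members both sh-IRF1 libraries were below both NC libraries, and in 3 both were above, while over all genes tested the shares were 35.0% below and 34.2% above.

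Highly expressed genes as a whole leaned to the lower side, so the members were also set beside other genes above a floor. Of the 4193 genes with an NC mean of at least 1000, 41.6% were called lower, and the median log2 fold change was -0.07. Of the 66 members above that floor, 55 were lower and 1 was higher, with a median of -0.20. The median standard error was 0.0330 in these members and 0.0514 in the 4193 genes. The shares called are therefore not matched for level or precision. A log2 fold change beyond 0.5 in the lower direction with an adjusted p under 0.05 was reached by 4 of the 77 members, a share near the 7.56% of all genes tested.

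**Figure D1:**
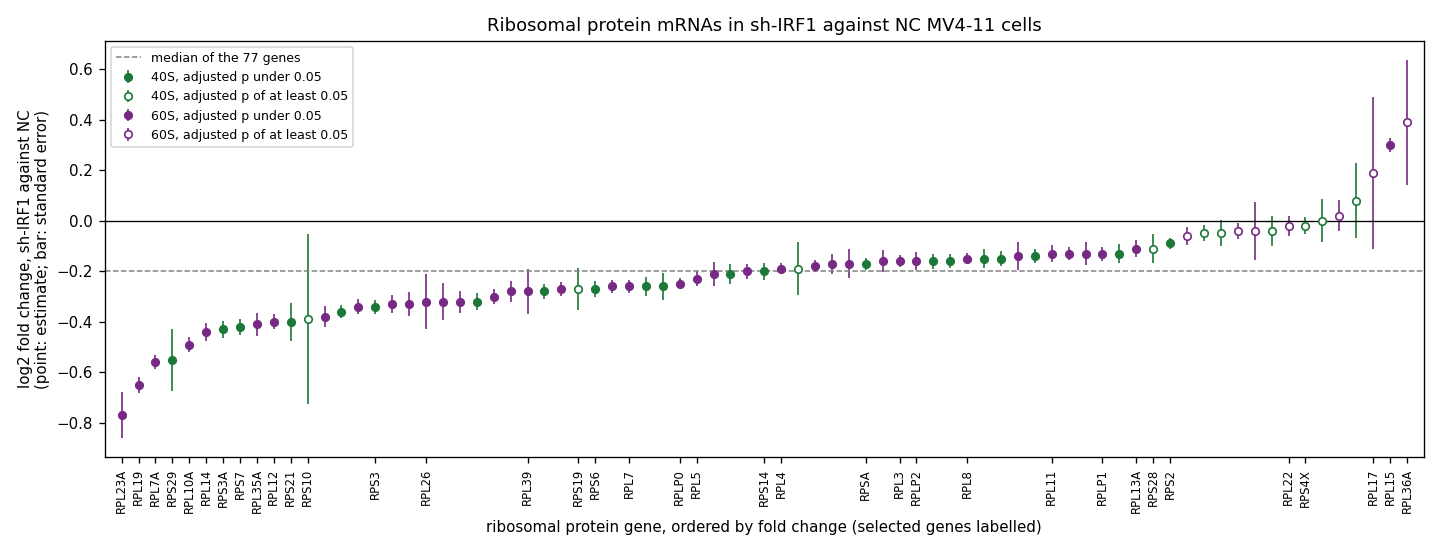
Log2 fold change of each of the 77 ribosomal protein genes in sh-IRF1 against NC (vertical axis), ordered from lowest to highest, with selected genes labelled; green marks 40S and purple 60S proteins, bars are standard errors, and open points had an adjusted p of at least 0.05. Filled points below 0 make up 59 of the 77, the dashed line is the median of -0.20, and RPL15 at 0.30 is the one filled point above 0.

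Exonic bases can be shared with other annotated genes, snoRNAs included, and reads are less certain where over 10% are. This held for 21 members, of which 14 were lower, and the other 56 had 45 lower and 1 higher with the same median of -0.20. Of the members given below with values, RPS2 (25.9%), RPSA (15.8%), RPL23A (15.7%), RPL26 (14.5%), RPS3A (14.3%), RPL13A (14.1%), RPL7A (12.7%), RPS6 (10.5%) and RPL22 (10.2%) are among the 21. RPS10, RPS28, RPL17 and RPL36A are too.

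Together the 77 genes took 5.017% and 4.773% of all reads in the NC libraries and 4.404% and 4.331% in the sh-IRF1 libraries. The groups did not overlap, and the means were 4.89% ± 0.172 and 4.37% ± 0.0518 (SD, n = 2 each), so that 89.2% of the NC share remained. The 40S genes went from 1.76% to 1.58% and the 60S genes from 3.14% to 2.79% of reads. The subunits therefore kept nearly the same proportion, with 89.6% and 89.0% of their NC shares.

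The NC libraries also differed from each other in these genes. NC 1 was above NC 2 in 66 of the 77 members, with a median log2 ratio of 0.07, while the median ratio over all genes was 0.00. The first sh-IRF1 library was above the second in 58 members, with a median log2 ratio of 0.04. This spread between replicates moved with the members as a set, and its part in the group difference was not tested. Without NC 1 the median log2 fold change was -0.16 and 51 members were called lower. Without NC 2 it was -0.25 and 62 were called lower.

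**Figure D2:**
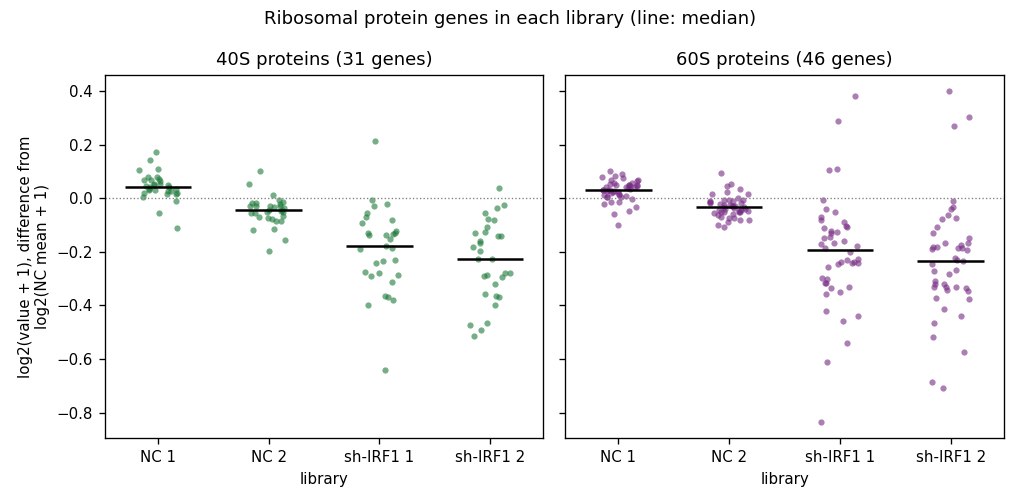
Difference of each gene's log2(normalised read count + 1) from the value for the NC mean (vertical axis) in the 4 libraries, for 31 genes of the 40S and 46 genes of the 60S subunit; each point is a gene and lines are medians. Both sh-IRF1 libraries lie below both NC libraries in their medians, and NC 1 lies slightly above NC 2.

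Of the 31 genes of the small subunit, 21 were lower and none was higher. The median log2 fold change was -0.19, with a range from -0.55 to 0.08. The largest decrease was in RPS29, a small zinc-binding protein of the 40S head, with normalised read counts of 421 and 359 in NC and 250 and 281 in sh-IRF1. The groups did not overlap, and the log2 fold change was -0.55 with a standard error of 0.123 (adjusted p = 0.000234 by limma). RPS3A followed with 10863 and 10370 in NC and 8214 and 7544 in sh-IRF1 (log2 fold change -0.43), and RPS7, a member linked to Diamond-Blackfan anemia, with -0.42. RPS21 and RPS3, the latter at the channel where mRNA enters, had log2 fold changes of -0.40 and -0.34.

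Smaller decreases were found in 40S proteins with known roles in signalling and disease. RPS6, the substrate that gave the S6 kinases their name, had 15458 and 14424 in NC and 12743 and 11972 in sh-IRF1, or 82.7% of the NC mean (log2 fold change -0.27, adjusted p = 2.99e-10 by limma). RPS14, the gene of the 5q- syndrome, had 9243 and 8694 in NC and 7926 and 7660 in sh-IRF1, or 86.9%. RPSA, also known as a laminin receptor, remained at 88.7%, with 28617 and 28402 in NC and 25057 and 25543 in sh-IRF1. In each of these 3 genes both sh-IRF1 libraries were below both NC libraries. RPS19, the gene most often mutated in Diamond-Blackfan anemia, had 12647 and 10860 in NC and 9693 and 9685 in sh-IRF1. Its groups did not overlap, but its log2 fold change of -0.27 did not pass the test (adjusted p = 0.0762 by limma), with the NC libraries far apart. RPS4X, RPS15, RPS23, RPS26, RPS15A, RPS27, RPS28 and RPS10 were also among those that did not pass. For RPS4X, the X-linked 40S protein, the values were 11149 and 10102 in NC and 10475 and 10455 in sh-IRF1, so that the sh-IRF1 libraries lay between the NC libraries.

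Of the 46 genes of the large subunit, 38 were lower and 1 was higher, and the median log2 fold change was -0.21. RPL19, which takes part in a bridge between the subunits, had 14456 and 13972 in NC and 9308 and 8837 in sh-IRF1. It remained at 63.8% of the NC mean (14214 ± 343 against 9073 ± 333, SD, n = 2 each), and the log2 fold change was -0.65 with a standard error of 0.0302 (adjusted p = 5.99e-23 by limma). Leaving out each library in turn gave values from -0.69 to -0.61. RPL19 (ENSG00000108298) lies on chromosome 17 from 39200283 to 39204840 in GENCODE 44 and shares none of its exonic bases with another gene. RPL7A (ENSG00000148303, chromosome 9 from 133348218 to 133351426), the host of 4 snoRNAs, had 18996 and 18214 in NC and 12795 and 12482 in sh-IRF1. That is 67.9% of the NC mean (log2 fold change -0.56, adjusted p = 4.87e-22 by limma). RPL10A, the protein of the L1 stalk through which spent transfer RNA leaves, had 12781 and 12689 in NC and 9276 and 8895 in sh-IRF1, or 71.3%. In all 3 genes the gap between the groups was many times the gap between replicates.

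Next in size were RPL14 with a log2 fold change of -0.44, RPL35A with -0.41 and RPL12 with -0.40. RPL35A, another Diamond-Blackfan gene, had 3692 and 3345 in NC and 2593 and 2711 in sh-IRF1. RPL23A had the lowest estimate of all members at -0.77, with 778 and 725 in NC and 421 and 460 in sh-IRF1, but its reads cannot be assigned with certainty. The 18 pseudogene rows of RPL23A held 66.4% as many reads as the gene, and with their reads added the log2 fold change was -0.29. The protein sits at the mouth of the exit tunnel, where the nascent chain meets factors that target or protect it.

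The stalk and the 5S particle are functional groups within the 60S subunit. RPLP0, the base of the stalk that recruits translation factors, had 43555 and 42549 in NC and 36659 and 35794 in sh-IRF1 (log2 fold change -0.25). Its partners RPLP1 and RPLP2 fell less, with log2 fold changes of -0.13 and -0.16. RPL5 and RPL11 join 5S ribosomal RNA in a particle that can also bind MDM2, the inhibitor of p53. RPL5 had 12152 and 11586 in NC and 10064 and 10178 in sh-IRF1 (log2 fold change -0.23, adjusted p = 1.23e-08 by limma). RPL11 had 7825 and 7539 in NC and 7154 and 6848 in sh-IRF1 (log2 fold change -0.13, adjusted p = 0.000991 by limma). The groups overlapped in none of these 5 genes. RPL3 and RPL4, core proteins that reach toward the peptidyl transferase centre and into the exit tunnel, had log2 fold changes of -0.16 and -0.19. RPL39, a short protein that lines the tunnel, had -0.28 (adjusted p = 0.00982 by limma), and RPL26 and RPL7 had -0.32 and -0.26.

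RPL15 was the only member called higher. This core protein of the 60S subunit, whose loss can cause Diamond-Blackfan anemia, had normalised read counts of 11857 and 11438 in NC and 14212 and 14385 in sh-IRF1. It rose to 123% of the NC mean (11648 ± 296 against 14299 ± 122, SD, n = 2 each), and the log2 fold change was 0.30 with a standard error of 0.0283 (adjusted p = 3.02e-12 by limma). With each library left out it stayed between 0.27 and 0.32, and with the reads of its 6 pseudogene rows added it was 0.29. RPL15 (ENSG00000174748) lies on chromosome 3 from 23916591 to 23924374, where 4.37% of exonic bases overlap other genes. Within each library, RPL15 reads came to 82.0% and 81.9% of RPL19 reads in NC and to 153% and 163% in sh-IRF1. This is a ratio of reads and not of transcripts, since the genes differ in length. RPL15 made up 1.31% and 1.32% of all reads of the 77 genes in NC and 1.83% and 1.90% in sh-IRF1.

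**Figure D3:**
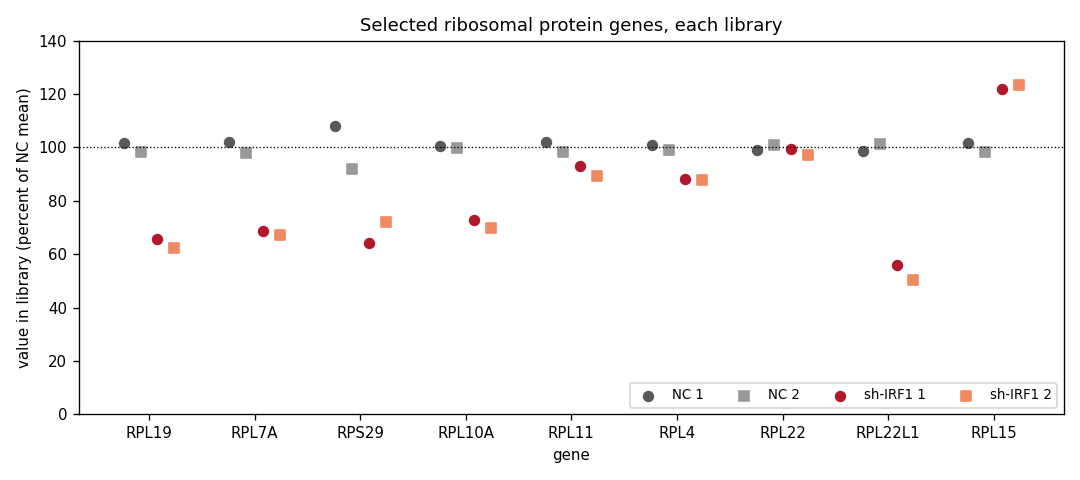
Normalised read count of 8 ribosomal protein genes and the paralogue RPL22L1 in each library, as a percent of the gene's NC mean (vertical axis, from 0); grey points are NC and red or orange points sh-IRF1 libraries. RPL19, RPL7A, RPS29, RPL10A and RPL22L1 lie well below 100 in both sh-IRF1 libraries, RPL11 and RPL4 slightly below, RPL22 near 100 and RPL15 above 100.

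The levels themselves were compared per kilobase of the canonical GENCODE transcript, which is long for a few members and then gives a low value. Among the highest members in NC were RPS2 with 44688 normalised reads per kilobase, RPLP0 with 38961, RPL13A with 37088 and RPL8 with 35376. These genes were called lower by small amounts, with log2 fold changes of -0.09, -0.25, -0.11 and -0.15. RPS2, at the mRNA entry channel, and RPL13A, known also for a role in silencing inflammatory mRNAs, were at the weak end. RPL13A had 43733 and 39863 in NC and 38757 and 38813 in sh-IRF1, a gap between groups smaller than the gap between the NC libraries. Across the 77 members the fold change had a Spearman rho of -0.05 with the NC mean, 0.22 with transcript length and 0.13 with GC content. These are descriptions over genes that share the same 4 libraries.

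GC content moved with the fold change among highly expressed genes in general. Among the 4193 genes with an NC mean of at least 1000 the rho with GC content was 0.31, and the median log2 fold change was -0.16 in the low, -0.07 in the middle and 0.04 in the high GC class, with bounds at 45.7% and 51.7%. The members had medians of -0.28, -0.16 and -0.18 in the same classes. The part of base composition in the result was not tested. The members' classes include the 11 members with an NC mean under 1000, so the classes are not matched for level.

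Reads from ribosomal protein genes can be split with their many processed pseudogenes, which are near-identical copies elsewhere in the genome. The table held 363 such rows for 67 of the 77 members, and together they took 0.197% of reads in NC and 0.188% in sh-IRF1, a small amount beside the members. Of the 88 pseudogene rows that could be tested, 17 were lower and 3 were higher, beside 21.9% and 20.3% of all genes tested. The median log2 fold change of these rows was -0.19. Adding each gene's pseudogene reads to its own left 58 members lower and 1 higher. In 5 members, RPL23A, RPS28, RPS10, RPL36A and RPL17, the pseudogene rows held over 50% as many reads as the gene, and their values are uncertain. RPL36A had 64.6 and 58.5 in NC and 80.6 and 81.5 in sh-IRF1, without overlap, but the log2 fold change of 0.39 did not pass the test (adjusted p = 0.208 by limma). With pseudogene reads added it was 0.04. For RPS10 the estimate was -0.39 alone and 0.31 with them.

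Members with and without a given feature had medians close to each other, and the differences were not tested. The 46 members with a pyrimidine run at an annotated start, as printed for RPL7A and RPS6, had a median log2 fold change of -0.21, with 36 lower and none higher. The 16 with a window but no run at the start had a median of -0.18, with 10 lower and 1 higher, RPL15. The 15 members without a window had a median of -0.18. Of 28 members with a snoRNA inside the gene, 26 were lower, with a median of -0.22, and of the 49 others 33 were lower, with a median of -0.19. Of 19 members linked to Diamond-Blackfan anemia, 11 were lower and 1 was higher, with a median of -0.20, beside 48 lower and a median of -0.19 in the 58 others. These counts are not matched for precision. The median standard error was 0.0481 in the Diamond-Blackfan members and 0.0330 in the 58 others. In members with and without a snoRNA it was 0.0302 and 0.0396.

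Promoter windows from 250 bases before to 50 bases after the start were searched on both strands. The ETS core motif CCGGAAG was found in 35.5% of the 62 members and in 12.2% of the 27305 genes, again counting any window of a gene, and the YY1 motif AAGATGGC in 9.68% and 3.52%. GGGCGG, bound by SP1, was found in 58.1% of the members and 48.3% of all genes. The E-box CACGTG, the site of MYC and MAX, was found in 6.45% of the members, namely RPL13A, RPL19, RPS19 and RPS28, and in 8.77% of all genes. A paired GAAA repeat with a spacer of 2 bases, the core that IRF proteins bind, was found in 6.45% of the members, namely RPL29, RPS9, RPS12 and RPS16, and in 4.38% of all genes. RPL29, RPS9, RPS12 and RPS16, all called lower, had log2 fold changes of -0.27, -0.16, -0.15 and -0.13. Among all 77 members 59 were called lower, and the median of the 77 was -0.20. Of the E-box members, RPL19 (-0.65) and RPL13A (-0.11) were called lower, while RPS19 (-0.27) and RPS28 (-0.11) did not pass the test. TATAAA was found in 5 of the 62 members and in 3819 of the 27305 genes. A match to these letters is a description and does not show binding.

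Several members have paralogues, near copies whose symbols the rule leaves out. Of the 7 paralogues tested, 3 were lower and none was higher, beside 21.9% and 20.3% of all genes tested. RPL22L1 (ENSG00000163584, chromosome 3 from 170864875 to 170870208), the paralogue of RPL22, had 700 and 719 in NC and 397 and 357 in sh-IRF1, or 53.1% of the NC mean (log2 fold change -0.91, adjusted p = 4.68e-11 by limma). RPL22 had 3632 and 3711 in NC and 3653 and 3571 in sh-IRF1, with a log2 fold change of -0.02 that did not pass the test. RPL22L1 reads thus went from 19.3% and 19.4% of RPL22 reads in NC to 10.9% in the first sh-IRF1 library and slightly less in the second. RPL7L1 was lower by a log2 fold change of -0.19. RPL39L, an RPL39 paralogue known from germ cells, had 153 and 112 in NC and 82.6 and 85.3 in sh-IRF1 (log2 fold change -0.63, adjusted p = 0.0122 by limma). Its call was lost without NC 1, where the value was -0.41, and without either sh-IRF1 library, and the value was -0.86 without NC 2. RPL3L, the muscle form of RPL3, had 11 and 12 reads in NC and 3 and 2 in sh-IRF1 and did not pass (adjusted p = 0.0669 by limma). RPL26L1, RPS27L and RPL36AL also did not pass, with log2 fold changes of -0.22, -0.26 and -0.03. RPL10L was not analysed here.

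Ribosomal proteins with other symbols were tested beside the members. RACK1, a scaffold on the 40S head, had 19818 and 19605 in NC and 17272 and 16772 in sh-IRF1 (log2 fold change -0.21, adjusted p = 2.29e-09 by limma). FAU, a fusion of a ubiquitin-like protein with a 40S protein, had 2421 and 2083 in NC and 2577 and 2370 in sh-IRF1. It was called higher (log2 fold change 0.14, adjusted p = 0.0431 by limma), although its groups overlapped, and the call was lost without NC 2 or without sh-IRF1 1.

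Other mRNAs known to carry a TOP motif were also mostly lower. Of 23 such genes, 16 were lower and 3, VIM, EIF4A2 and FAU, were higher, with a median log2 fold change of -0.20. The shares over all genes tested were 21.9% lower and 20.3% higher. Each of the 23 had an NC mean above 1000, the lowest being EEF1D with 2008. Of the 4193 genes at or above that floor, 1743 (41.6%) were called lower and 1043 higher, and their median was -0.07. The median standard errors were 0.0307 in the 23 and 0.0514 in the 4193, so these shares are not matched for precision. The 23 TOP genes took 3.60% of reads in NC and 3.16% in sh-IRF1, or 87.7% of the NC share. TPT1, the translationally controlled tumour protein, had 14680 and 14685 in NC and 10237 and 9967 in sh-IRF1 (log2 fold change -0.54, adjusted p = 5.57e-21 by limma). VIM, the intermediate filament protein vimentin, had 5093 and 5331 in NC and 6142 and 6111 in sh-IRF1 (log2 fold change 0.23, adjusted p = 4.24e-07 by limma). The list shares RACK1 and FAU with the ribosomal proteins of other symbols.

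The regulators of TOP mRNAs and of mTORC1 were called in both directions. Of 22 genes, 12 were lower and 7 higher, beside 21.9% and 20.3% of all genes tested. PDCD4, an inhibitor of the helicase eIF4A, had 2399 and 2461 in NC and 1070 and 1089 in sh-IRF1, or 44.4% of the NC mean (log2 fold change -1.17, adjusted p = 1.21e-22 by limma). EIF4EBP2, an inhibitor of the cap-binding protein eIF4E, had 5192 and 5263 in NC and 6632 and 6493 in sh-IRF1 (log2 fold change 0.33, adjusted p = 6.35e-11 by limma). Neither gene's groups overlapped. PDCD4 shares 29.5% of its exonic bases with other annotated genes, and in the TOP list VIM shares 24.6% and TPT1 11.1%. Of 16 chaperones, importers and quality-control factors of ribosomal proteins and nascent chains, 8 were lower and 2 higher. The shares over all genes are those given above, and 41.6% of genes with an NC mean of at least 1000 were called lower. NACA, BTF3 and NAP1L1, all called lower, are also counted in the TOP list. NACA, which contacts chains as they leave the tunnel, had a log2 fold change of -0.43, with 8467 and 7915 in NC and 6118 and 6017 in sh-IRF1. IPO9, an importer of ribosomal proteins, had 0.12 (adjusted p = 0.0323 by limma), with 2692 and 2809 in NC and 2972 and 2987 in sh-IRF1.

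Of 9 RPS6K genes tested, the kinases named for RPS6, 4 were lower and 2 were higher, beside 21.9% and 20.3% of all genes. RPS6KB1 and RPS6KB2 are also in the list of TOP and mTORC1 regulators. RPS6KA3, the kinase RSK2, had 3699 and 3969 in NC and 2586 and 2363 in sh-IRF1 (log2 fold change -0.63, adjusted p = 6.52e-16 by limma). RPS6KB2, which acts on RPS6 below mTORC1, had 787 and 841 in NC and 1058 and 983 in sh-IRF1 (log2 fold change 0.33, adjusted p = 0.000276 by limma). RPS6KA6 was not analysed here.

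**Figure D4:**
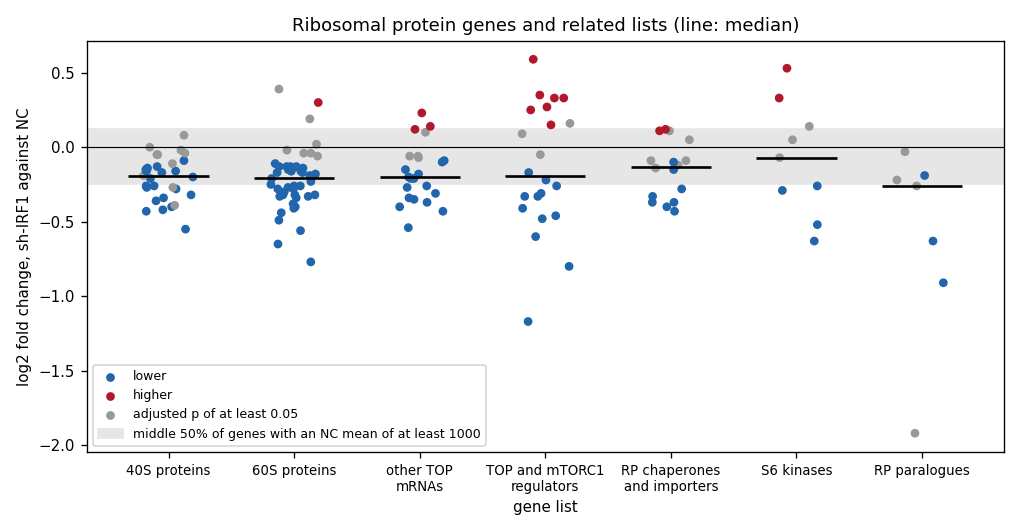
Log2 fold change in sh-IRF1 against NC (vertical axis) of the 40S and 60S genes and of 5 related gene lists; each point is a gene, blue and red points were called lower and higher, lines are medians, and the grey band is the middle 50% of genes with an NC mean of at least 1000. The medians of the 40S, 60S and other TOP genes lie at -0.19, -0.21 and -0.20, and the regulators and S6 kinases spread to both sides of 0.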

How the data were processed

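RNA sequencing of 2 NC and 2 sh-IRF1 MV4-11 libraries was used. The submitters' processing notes name HISAT2 2.0.5 and hg38, and the study names DESeq2 for its comparison. The counter, annotation and use of strand are not given in the sources used here. The authors deposited a signal per gene: reads divided by 1 size factor per library. Values were whole multiples of 1 read within 8.2e-05 of a read, so shares of reads were taken from these multiples. The table had 0 other columns of per-sample values.

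Symbols matched 23456 of 23622 genes. Positions came from GENCODE 44 (GRCh38), start windows from RefSeq (GRCh38.p14). The 14120 genes that reached 10 in 2 or more libraries were tested with limma 3.58.1 (R 4.3.3, trend and robust, median 43 prior degrees of freedom) on log2(value + 1). Count tests planned on the recovered reads were not run. In simulated data with 100 genes changed by 0.5 and 100 by 1 (log2), limma called 75 and 96. The simulated spread was assumed, and both sizes exceed the members' median change, so detection of changes that small was not gauged.

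Members and lists were chosen with earlier results of these data known. Named were IRF1; the 10 largest and 10 smallest fold changes among members that passed; the 5 highest members per kilobase; members with a paralogue or known role; paralogues; ribosomal proteins of other symbols; and each list's smallest p per direction. Reads were taken as less certain at over 10% shared exonic bases or over 50% as many pseudogene reads. RPS3, RPS4X, RPS10, RPS19, RPL4, RPL12, EIF4A2 and other genes outside this rule were named after their values were seen. Alternatives covered scaling, filter, pseudocount, robust shrinkage, pseudogene reads, a replicate block and leaving out each library. Some genes are not reported here by name. The precision of any one gene is limited by 2 libraries per group, and no spike-in was reported.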

Additional observations from a re-analysis of the deposited data

How the results depend on the processing

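The count of ribosomal protein genes called lower was 59, and ran from 50 (quantile normalization, chosen after seeing the data) to 62 (without NC replicate 2) of 77. With the 21 members left out that share over 10% of their exonic bases, it was 45 of 56. It was 54 with scaling by total reads, 57 with upper quartile scaling and 51 to 62 with each library left out, and 1 gene was called higher in every setting. Scaling by total reads, which moved the median of all genes to 0.043, gave median log2 fold changes of -0.16 for all members, -0.15 for the 40S and -0.16 for the 60S genes. Quantile normalization gave -0.14, -0.12 and -0.14. With each library left out, the median of all members ran from -0.25 to -0.16, that of the 40S genes from -0.25 to -0.16 and that of the 60S genes from -0.25 to -0.18. The cause was not tested. Of 116 such values over 9 main results, 106 were scored as unchanged. Every count of genes was scored so, also 50 members lower against 59, so this share says little about the counts. The values that moved beyond the spread were all medians. Of 664 values over 49 named genes, 634 kept their direction and side of the threshold, 23 lost and 2 gained a call, and 5 turned sign. The last were RPS2 at 0.01 with quantile normalization, RPL22 at 0.02 with total reads and 0.01 with quantile normalization, and RPL36AL at 0.01 with total reads and 0.09 without NC replicate 1. RPL13A lost its call with total reads, quantile normalization and pseudogene reads added (-0.10) and without NC replicate 1 (-0.04), but kept it with upper quartile scaling (-0.09). Calls were also lost without NC replicate 1 by RPL39L (-0.41) and IPO9 (0.08), and without NC replicate 2 by RPL39 (-0.19), RPL26 (-0.28) and FAU (0.03). They were lost without sh-IRF1 replicate 1 by RPL26 (-0.33), RPL39L (-0.61), FAU (0.08) and IPO9 (0.12), and without sh-IRF1 replicate 2 by RPS2 (-0.08), RPL11 (-0.10), RPL39 (-0.24), RPL26 (-0.31), RPL39L (-0.66) and IPO9 (0.11). RPL8 and RPL11 lost theirs with quantile normalization, and FAU without robust shrinkage. The labels number libraries 1 and 2 in both groups, but same-numbered libraries did not deviate together (correlation across genes of -0.0154), and a replicate block gave 60 members lower and 1 higher. TMM scaling, edgeR and DESeq2 were planned on counts and not run. RPL17, RPS10 and RPL36A had under 100 reads per library, and their pseudogene rows held 487%, 379% and 292% as many reads as the gene. These low counts and the 2 libraries per group limit the calls.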
